A study of Mus musculus with 6 samples.

Results

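Fatty acids move through the watery interior of a cell bound to small carrier proteins, and 7 genes of this traffic were measured in the liver of 6-day-old mice in which a human sex-determining gene had been switched on. They were taken by symbol from the array table and comprised 5 genes of the fatty acid-binding protein family (*Fabp1*, *Fabp2*, *Fabp4*, *Fabp5* and *Fabp7*), *Dbi* and *Slc27a2*, that is 7 of the 18138 symbols and 10 of the 25697 probes in the table. Only the first 5 are fatty acid-binding proteins by family. *Dbi* encodes the acyl-CoA-binding protein and *Slc27a2* a membrane enzyme that imports and activates fatty acids.

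All 6 samples were livers of male FVB pups (FVB/N background per the methods) at postnatal day 6, each on its own Illumina MouseRef-8 bead array, 3 from hSRY-ON and 3 from hSRY-OFF mice, which the study describes as biological triplicates. In hSRY-ON pups a single-copy FLAG-tagged human *SRY* transgene with a linked *EGFP* (*Signalox-hSRY*) had lost its *DsRed2* stop cassette through Cre protein carried over from the oocyte of a *Ddx4-Cre* mother, so that the ubiquitous *CAG* promoter drove it in every organ. The pups used for arrays had not inherited *Ddx4-Cre* itself. Per the methods, hSRY-OFF denotes carriers of the same transgene without recombination, which express *DsRed2* in its place. Elsewhere the study also uses littermates without this transgene as controls, and the array labels say only hSRY-OFF. One transgenic line was used, and the labels give neither litter nor feeding state. The transgene itself was not analysed here.

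The liver-type protein FABP1 is known as the main fatty acid carrier of hepatocytes, FABP2 belongs to enterocytes, FABP4 to fat cells, capillary endothelium and macrophages, FABP5 to skin and to many cells at a low level, and FABP7 to the developing brain. Once a fatty acid is coupled to coenzyme A, by acyl-CoA synthetases or by the product of *Slc27a2*, the acyl-CoA-binding protein holds it and hands it to oxidation, to triglyceride synthesis or to elongation. Several of these genes are known targets of the nuclear receptor PPAR-alpha.

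Median bead intensity lay between 147 and 165 on the 6 arrays, and 40.2% to 41.9% of probes were detected, meaning a detection p under 0.01 against the negative control beads. Across tested probes, the Pearson correlation of any pair of hSRY-OFF livers was at least 0.987, that of any pair of hSRY-ON livers at least 0.965, and that of a pair from both groups at most 0.939. Hepatocyte markers were present in both groups, with 12 of 13 listed genes tested. Of their 17 tested probes 0 were higher and 4 lower in hSRY-ON livers (0% and 23.5%, against 15.8% and 17.3% of all tested probes). The lower probes were of *Alb*, *Serpina1a* (both tested probes) and *Ttr*. Summed normalized levels of the 17 probes did not overlap, with 366084 to 376280 in hSRY-OFF and 330534 to 359312 in hSRY-ON arrays. In whole tissue, fewer cells of a type and less RNA per cell cannot be told apart.

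Of the 10 probes, 4 were detected on all 6 arrays: 1 of *Fabp5*, 2 of *Dbi* and the one of *Slc27a2*. These 4 were tested and did not pass the filter through one group alone. The 4 genes *Fabp1*, *Fabp2*, *Fabp4* and *Fabp7* were detected on 0 arrays of either group, as was the second *Fabp5* probe, so no fold change can be given for them.

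**Figure D1:**
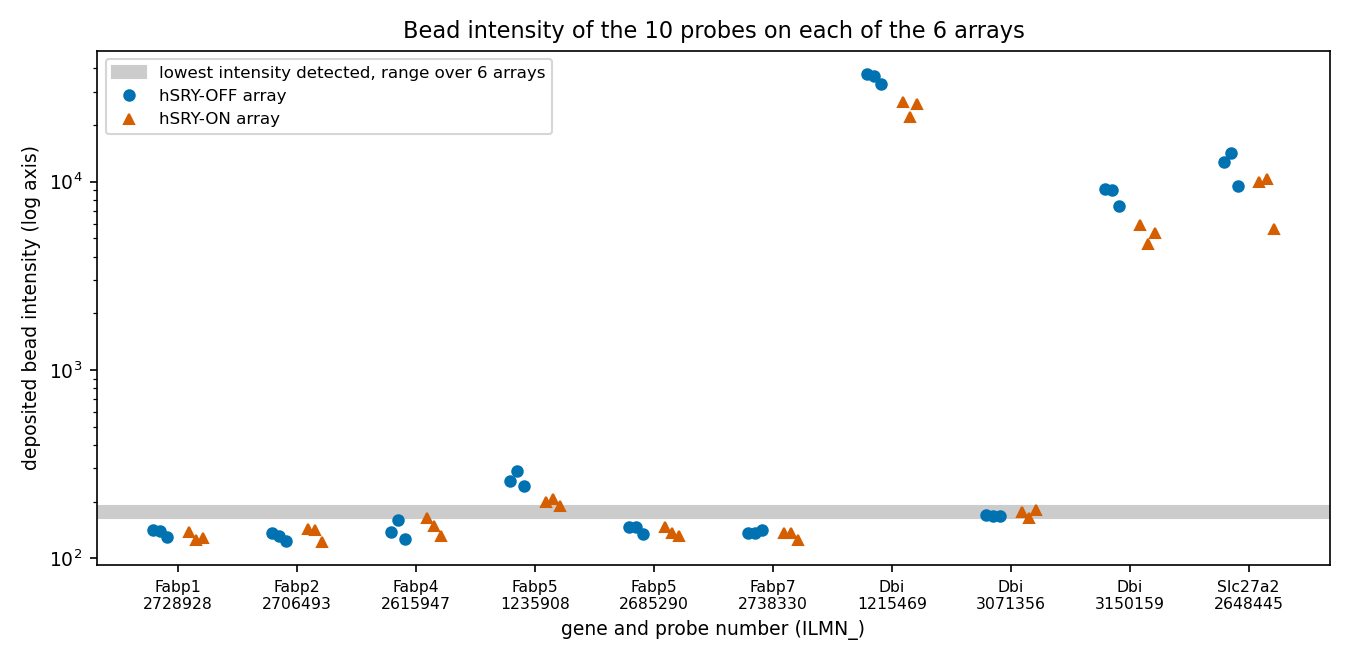
Deposited bead intensity (log axis) of the 10 probes, each labelled by gene and probe number, on the 3 hSRY-OFF arrays (circles) and the 3 hSRY-ON arrays (triangles). The grey band marks the lowest intensity that counted as detected, 164 to 190 over the 6 arrays; 5 probes lie in or below it on every array, 1 *Dbi* probe (ILMN_3071356) lies around its lower part, and 4 probes lie at or above its upper edge.

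The *Fabp1* probe (ILMN_2728928) read 140, 140 and 130 in the hSRY-OFF livers and 137, 126 and 128 in the hSRY-ON livers, in units of deposited bead intensity without background subtraction. Its detection p was never below 0.595. The signal of this probe was therefore that of empty beads in both groups, in an organ where the transcript is known to be abundant, and it gives no information on *Fabp1* in either direction.

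*Fabp2*, the intestinal carrier (ILMN_2706493), read 136, 131 and 123 in the hSRY-OFF livers and 144, 142 and 123 in the hSRY-ON livers. The groups overlapped, and the lowest detection p was 0.353. Of 6 enterocyte marker genes on the array, 4 were detected on 0 arrays, namely *Cdx1*, *Cdx2*, *Sis* and *Vil1*. *Anpep* and *Krt20* were detected and lower in hSRY-ON livers (100% of 2 tested probes, against 17.3% of all tested probes). The summed level of the 2 tested probes, of *Anpep* and *Krt20* alone, was 1396 to 1884 in hSRY-OFF and 594 to 642 in hSRY-ON arrays. It does not include the other enterocyte genes, and whether *Anpep* and *Krt20* were read from enterocytes was not tested.

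*Fabp4*, the carrier of fat cells (ILMN_2615947), read 138, 160 and 126 in the hSRY-OFF livers and 164, 148 and 131 in the hSRY-ON livers. Its highest value, on hSRY-ON replicate 1, had a detection p of 0.0890, and the groups overlapped. Of 9 adipocyte marker genes 8, including *Adipoq*, *Plin1*, *Lep* and *Retn*, were detected on 0 arrays, and *Lipe* on 1 hSRY-OFF array with 1 of its 2 probes. Markers of macrophages and endothelium, which also make FABP4, were mostly detected well enough to be tested (9 of 12 and 12 of 13 genes on the array).

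*Fabp7*, the brain-type carrier (ILMN_2738330), read 136, 137 and 141 in the hSRY-OFF livers and 137, 136 and 125 in the hSRY-ON livers, with a lowest detection p of 0.207. Among neural and glial markers 6 of 8 genes on the array were detected on 0 arrays, *Gfap* and *S100b* among them. The 2 that were tested, *Mbp* and *Nes*, were not past the threshold.

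*Fabp5*, the epidermal-type carrier, was the only gene of the binding protein family with a measurable signal. Its probe ILMN_1235908 read 258, 289 and 241 in hSRY-OFF livers and 199, 205 and 190 in hSRY-ON livers. All 3 hSRY-ON values lay below all 3 hSRY-OFF values.

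After background correction and quantile normalization, the mean log2 level of this probe was 7.08 ± 0.16 in control livers against 6.23 ± 0.23 with active hSRY (SD, n = 3 each). *Fabp5* fell to 55.3% of the control level, a log2 difference of -0.85 ± 0.16 (SE, 95% interval -1.23 to -0.48, limma adjusted p 0.00706). The probe was dim, at 1.36 to 1.96 times the median intensity of undetected probes of the same array, so the size of the fall depended on the background subtracted. Without background correction the difference was -0.38 (limma adjusted p 0.0125). It remained past the threshold in every one of the 16 alternatives run for it (limma adjusted p 0.00236 to 0.0326). The second *Fabp5* probe (ILMN_2685290) read 146, 147 and 135 in the hSRY-OFF livers and 146, 136 and 131 in the hSRY-ON livers, was detected on 0 arrays and therefore neither repeats nor contradicts the first.

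FABP5 is also made by macrophages and endothelium. Of their tested marker probes, 7 of 12 and 7 of 13 were not past the threshold and the rest were called, where 33.1% of all tested probes were called. Macrophage markers were lower at 4 and higher at 1 of 12 tested probes (33.3% and 8.33%, against 17.3% and 15.8% of all tested probes). The lower probes were of *Adgre1* (listed as *Emr1*), *Clec4f* (both tested probes) and *Vsig4*, and the higher one was of *Csf1r*. The other tested probe of *Csf1r* differed by -0.16 (limma adjusted p 0.394) and that of *Adgre1* by -0.80 (0.0971). *Clec4f* was detected on 0 hSRY-ON arrays with ILMN_2876653. Summed macrophage levels did not overlap, with 13832 to 17217 in hSRY-OFF and 10975 to 13611 in hSRY-ON arrays. Of the 12 genes on the array 2, *Cd163* and *Cd5l*, were detected on 0 arrays. Endothelial markers were higher at 5 and lower at 1 of 13 tested probes (38.5% and 7.69%), with summed levels that overlapped, 11566 to 13598 in hSRY-OFF and 11898 to 15724 in hSRY-ON arrays, and *Kdr* was detected on 0 arrays. The part of these cells in the *Fabp5* result was not tested.

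*Dbi*, encoding the acyl-CoA-binding protein, gave strong signals with 2 of its 3 probes, and both were lower in hSRY-ON livers. Probe ILMN_1215469 read 37297, 36597 and 33124 in the hSRY-OFF livers and 26384, 21981 and 25828 in the hSRY-ON livers, in deposited intensity. Probe ILMN_3150159 read 9115, 9024 and 7477 in the hSRY-OFF livers and 5897, 4689 and 5327 in the hSRY-ON livers. With either probe every hSRY-ON array lay below every hSRY-OFF array, and hSRY-ON replicate 2 was the lowest of all.

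On the normalized log2 scale, ILMN_1215469 went from 15.12 ± 0.05 to 14.60 ± 0.21 (SD, n = 3 each), a difference of -0.53 ± 0.14 (SE, 95% interval -0.86 to -0.20, limma adjusted p 0.0256). ILMN_3150159 went from 12.96 ± 0.04 to 12.42 ± 0.18, a difference of -0.54 ± 0.13 (SE, 95% interval -0.85 to -0.23, limma adjusted p 0.0185). *Dbi* thus fell to 69.4% and 68.8% of the control level with the 2 probes. The log2 distance between the 2 probes was 2.11 to 2.22 on all 6 arrays, so both gave a like difference between the groups. Their order was the same over the hSRY-ON arrays, but hSRY-OFF replicates 2 and 3 stood in opposite order with the 2 probes.

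Both *Dbi* calls were sensitive to the number of arrays. Without hSRY-OFF replicate 1, 2 or 3 neither probe was past the threshold (limma adjusted p 0.0948, 0.0792 and 0.0600 for ILMN_1215469, and 0.0752, 0.0565 and 0.0545 for ILMN_3150159), and ILMN_1215469 was also lost without hSRY-ON replicate 1 (0.0619) or 2 (0.0555). The differences themselves stayed between -0.63 and -0.42 and between -0.63 and -0.45.

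The third *Dbi* probe (ILMN_3071356) read 169, 169 and 169 in the hSRY-OFF livers and 176, 163 and 180 in the hSRY-ON livers. It was detected on 1 array of each group, the replicate numbered 3 in both, and was not tested.

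**Figure D2:**
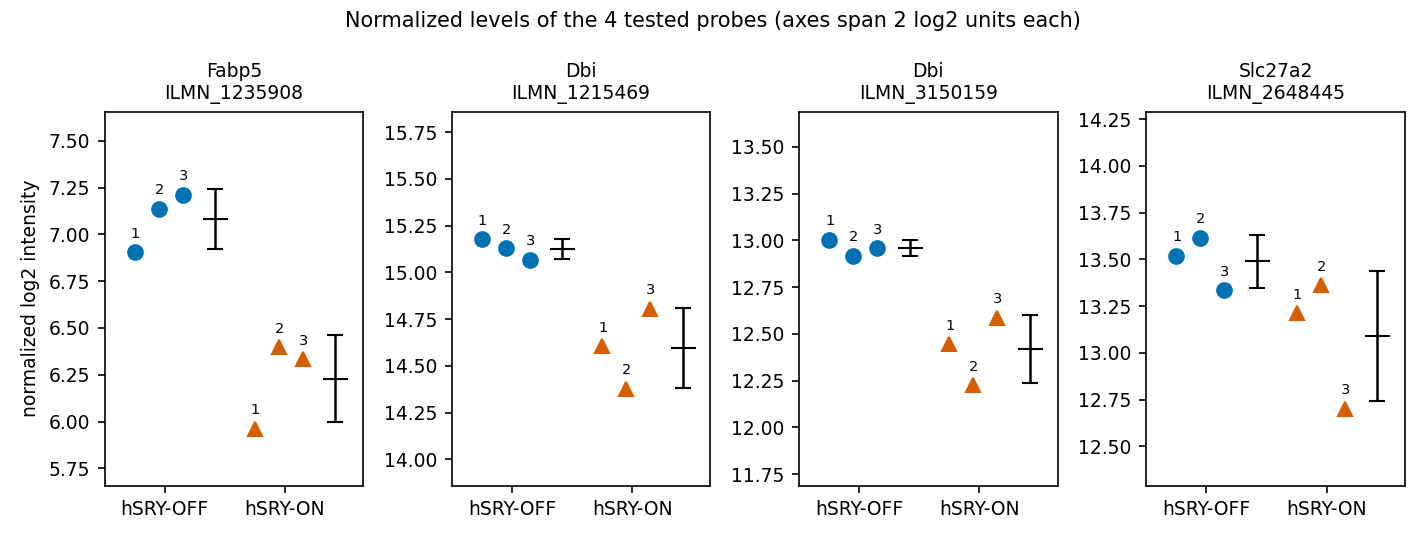
Normalized log2 intensity of the 4 tested probes in hSRY-OFF (circles) and hSRY-ON (triangles) livers, with the replicate number above each point and the mean and SD of the 3 arrays as a bar beside them. The groups are apart for *Fabp5* and both *Dbi* probes and overlap for *Slc27a2*, where hSRY-ON replicate 3 at 12.70 lies below the rest.

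*Slc27a2*, whose product imports and activates long and very long fatty acids, did not pass the threshold. Its probe ILMN_2648445 read 12754, 14142 and 9525 in the hSRY-OFF livers and 9991, 10338 and 5591 in the hSRY-ON livers. The groups overlapped, since hSRY-OFF replicate 3 lay below hSRY-ON replicates 1 and 2 in deposited intensity. The normalized log2 level was 13.49 ± 0.14 and 13.09 ± 0.35 (SD, n = 3 each), a difference of -0.40 ± 0.19 (SE, limma adjusted p 0.148). Its 95% interval of -0.85 to 0.05 contains 0 and also the changes fitted for *Dbi*. Without hSRY-ON replicate 3, the lowest array of this gene, the difference was -0.21.

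Of the 4 tested probes 3 were therefore lower in hSRY-ON livers and 0 higher (limma, and 0 higher at an unadjusted p under 0.05), where 17.3% of all 10734 tested probes were lower and 15.8% higher (33.1% in either direction). Values of the groups did not overlap at the same 3 probes, where 24.6% of all tested probes had every hSRY-ON value below every hSRY-OFF value and 25.4% the reverse. The 4 differences had a median of -0.53, against 0.02 over all tested probes. With 4 probes of 3 genes, 2 of the probes being of *Dbi*, these counts describe the genes and not a family.

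To ask whether the 3 measurable genes changed unequally, the log2 ratio of each pair was taken within every array, with the 2 strong *Dbi* probes averaged. *Fabp5* changed by -0.32 relative to *Dbi* (exact permutation test, two-sided, p = 0.2, adjusted p 0.45 over the 3 pairs) and by -0.46 relative to *Slc27a2* (exact p = 0.3, adjusted p 0.45). *Dbi* changed by -0.14 relative to *Slc27a2* (exact p = 0.7, adjusted p 0.7). The smallest p that 3 against 3 arrays allow is 0.1, so this test could not have passed the threshold whatever the values, and it leaves unanswered whether the 3 genes changed by the same amount.

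**Figure D3:**
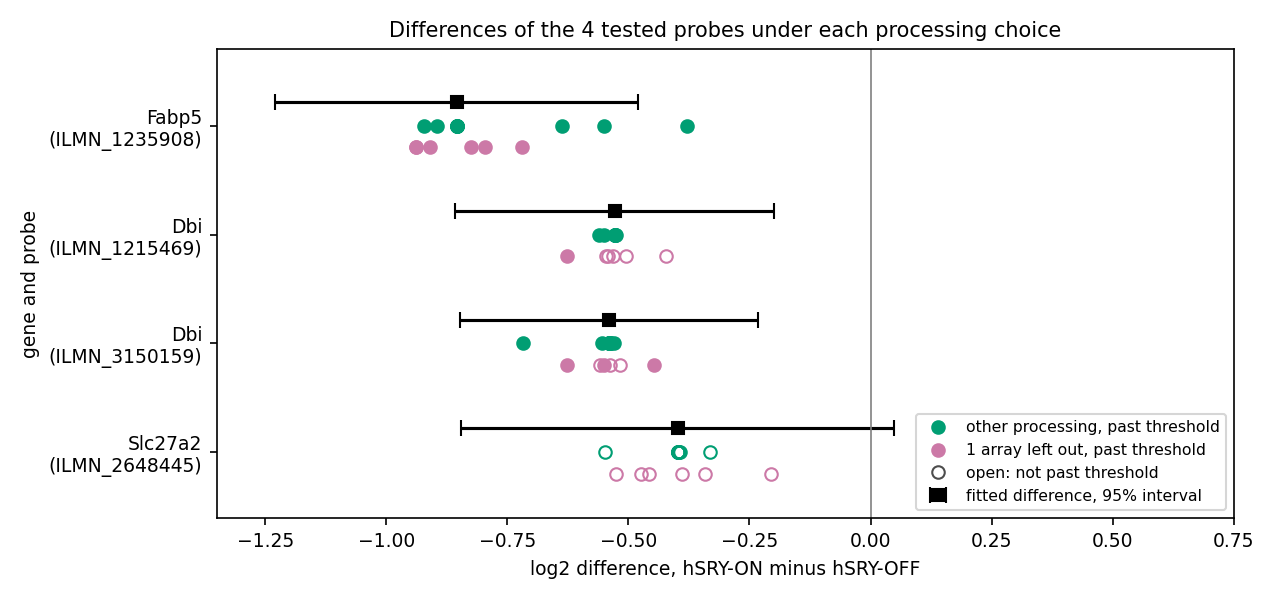
Fitted log2 difference, hSRY-ON minus hSRY-OFF, of the 4 tested probes with its 95% interval (squares), and the same value under other processing (upper circles) and with each array left out (lower circles), filled where the limma adjusted p was under 0.05. All values lie below 0; *Fabp5* spreads from -0.94 to -0.38 but stays filled, the *Dbi* values turn open when single arrays are left out, and *Slc27a2* is open throughout.

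The genes whose course over the 6 arrays was most like that of each probe were found by the root mean square distance between mean-centred log2 profiles. For *Fabp5* these were *Pla1a* (0.05 log2 units) and *Proc* (0.06), with differences of -0.84 and -0.86. For *Dbi* they were *Prkab1* and *Zfhx3* (both 0.03) with ILMN_1215469, and *Camkk2* and *Ifi35* (both 0.03) with ILMN_3150159. For *Slc27a2* they were *Gpr107* (0.04) and *Rbpms2* (0.05). Such a list holds whatever differed by a like amount between the groups.

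Other lipid carriers and the enzymes around them were examined next, as lists written from general knowledge. The remaining intracellular lipid-binding proteins were mostly undetected: 6 of 9 genes on the array gave no signal on any array, *Fabp3* and *Fabp9* among them, and *Fabp6* was detected on 1 hSRY-ON array. *Rbp2*, the intestinal retinol-binding protein, rose from 6.95 ± 0.15 to 8.83 ± 0.94 (SD, n = 3 each, difference 1.88, limma adjusted p 0.0136).

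Among other proteins that bind acyl-CoA or lipids in cytosol and peroxisome, 15 probes of 11 genes were tested, with a median difference of -0.29. Of these probes 1 was higher and 3 lower (6.67% and 20%, against 15.8% and 17.3% of all tested probes). *Scp2*, the sterol carrier of peroxisomes, was lower with 2 of its 3 tested probes (-0.48 with ILMN_2705886, limma adjusted p 0.0135, and -0.39 with ILMN_2705881, 0.0297) and differed by -0.38 with the other (0.108). *Pctp*, a phosphatidylcholine carrier, differed by -0.61 (limma adjusted p 0.0296) and was detected on 1 hSRY-ON array. *Eci2*, listed as *Peci*, a peroxisomal isomerase with an acyl-CoA-binding domain, rose by 1.29 (limma adjusted p 0.00188). The relatives of *Dbi* that carry its binding domain, *Acbd3*, *Acbd4*, *Acbd5* and *Acbd6*, were not past the threshold with any tested probe, the nearest being *Acbd5* at -0.69 (limma adjusted p 0.0571).

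In the list of fatty acid uptake and acyl-CoA synthetases, 16 probes of 14 genes were tested, with a median of -0.12. Of these probes 2 were higher and 5 lower (12.5% and 31.2%, against 15.8% and 17.3% of all tested probes). *Acsm5*, a medium-chain synthetase, fell by 2.49 on the log2 scale (limma adjusted p 0.000150) and *Acsl5*, a long-chain synthetase, by 0.65 (0.00748). *Acsl4* rose by 1.34 with ILMN_3136205 (limma adjusted p 0.00321) while its other tested probe differed by 0.19 (0.470), and *Acss1*, which activates acetate in mitochondria, rose by 0.94 (0.0481). The transporter *Slc27a5*, the liver relative of *Slc27a2*, was lower by -1.01 (limma adjusted p 0.0190), *Slc27a1* differed by 0.17 (0.509) and *Slc27a4* by 0.50 (0.0819). *Cd36*, the fatty acid translocase, was detected on 0 arrays with its 1 probe.

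Acyl-CoA thioesterases, which release the fatty acid from coenzyme A again, moved in both directions. Of 17 tested probes of 10 genes 6 were higher and 2 lower, with a median of -0.04. These shares were 35.3% and 11.8%, against 15.8% and 17.3% of all tested probes. *Acot1*, the cytosolic enzyme, rose by 3.51 and 3.16 on the log2 scale with its 2 tested probes (limma adjusted p 3.28e-05 with both), and *Acot2*, the mitochondrial one, was at least 3.20-fold higher with ILMN_2745889 (limma adjusted p 0.000155), a probe detected on 0 hSRY-OFF arrays, while its other tested probe differed by -0.08. These neighbouring genes are close in sequence and may share signal. *Acot4* fell by 1.77 on the log2 scale (limma adjusted p 0.00545) and *Acot3* by 1.53 (0.0330), both peroxisomal enzymes.

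**Figure D4:**
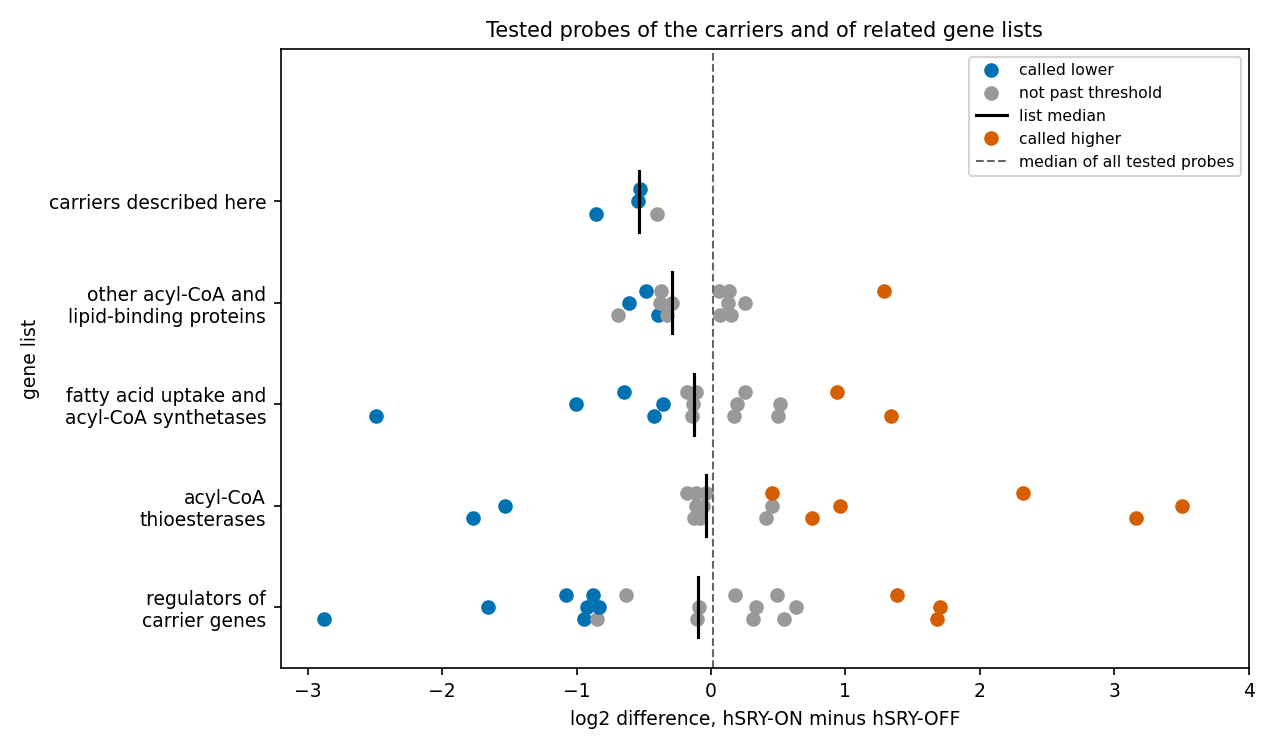
Log2 difference, hSRY-ON minus hSRY-OFF, of every tested probe of the carriers described here (4 probes) and of 4 related lists (15, 16, 17 and 20 probes), coloured by whether it was called higher, lower or neither with limma at an adjusted p of 0.05. Black bars mark list medians and the dashed line the median of all tested probes, 0.02; the carriers lie left of it, while each other list has called probes on both sides.

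Of the transcription factors known to act on carrier genes, 20 probes of 18 genes were tested, with a median of -0.10. Among these probes 3 were higher and 7 lower (15% and 35%, against 15.8% and 17.3% of all tested probes). *Ppara*, the fatty acid receptor, differed by -0.85 with every hSRY-ON value below the controls, but was not past the threshold (limma adjusted p 0.0536). *Srebf1*, which drives fatty acid synthesis, was at least 5.42-fold lower (limma adjusted p 0.000219) and detected on 0 hSRY-ON arrays, and *Cebpa* fell by 1.66 on the log2 scale (0.00392). *Cebpb* rose by 1.39 (limma adjusted p 0.00266) and the coactivator *Ppargc1b* by 1.68 (0.00972). *Hnf4a* differed by -0.09 (0.768) and *Pparg* by 0.18 (0.299).

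Erythroid markers, which are present in early postnatal liver, were higher at 6 and lower at 0 of 11 tested probes (limma, 0 lower also at an unadjusted p under 0.05). These shares were 54.5% and 0%, against 15.8% and 17.3% of all tested probes. The summed level was 65159 to 85615 in hSRY-OFF and 85405 to 97298 in hSRY-ON arrays. It includes *Hba-a1*, which had the same normalized log2 level of 15.50 on every array and so adds a constant. *Epb42* was detected on 0 arrays. The part of erythroid cells in the lower *Dbi* and *Fabp5* levels was not tested.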

How the data were processed

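The authors ran total RNA of 3 hSRY-ON and 3 hSRY-OFF livers on MouseRef-8 v2.0 BeadChips (Illumina). The deposited table gives, per array, mean bead intensity on a linear scale, neither background-subtracted nor normalized by the authors, and a deposited detection p-value. Scanner software and genome build were not given in the sources used here. The study names TCC, a package for counts, which was not applied to intensities, and the submitters' processing notes name limma. Groups came from sample titles, and 0 value columns had no sample. Background was inferred from the detection p-values and removed with nec (normexp, offset 16) of limma 3.58.1 (R 4.3.3). Values were then quantile normalized and put on the log2 scale. The test took the 10734 probes detected (p under 0.01) on 3 or more of the 6 arrays, whatever their group, each on its own, with lmFit and eBayes, no covariate, two-sided, Benjamini-Hochberg adjustment over all of them and a threshold of 0.05. "Higher", "lower", "rose" and "fell" refer to this test. Where one group detected a probe on 0 arrays, the fold is a bound against the higher of the lowest detected signal and the probe's own. List genes were matched by symbol or by older names in the RefSeq gene table of GRCm38.p6, in which 14307 of 18138 symbols were current and 2927 matched through an older name. Named from each pathway list were at most 2 genes higher and 2 lower with the smallest adjusted p; *Slc27a1*, *Slc27a4*, *Slc27a5*, *Cd36*, the *Acbd* genes, *Fabp3*, *Fabp6*, *Fabp9*, *Ppara*, *Hnf4a* and *Pparg* were added after their values were seen. The genes and lists were chosen with earlier results of these data known. The procedure was tested on simulated data. Alternatives covered background, offset, scaling, filters, variance model, array weights, threshold, probes averaged per gene, a replicate block and each array left out. The number of arrays limits the precision. Some items are not reported here.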

Additional observations from a re-analysis of the deposited data

How the results depend on the processing

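All 4 tested probes kept a negative difference in the alternatives run for them. *Fabp5* kept its call in all 16, *Slc27a2* stayed short of the threshold in all 16 (limma adjusted p 0.0803 to 0.329), and the 2 *Dbi* probes kept theirs in 11 and 13 of 16. At an adjusted p under 0.01, 1 of the 4 probes was lower, beside 693 higher and 972 lower over all tested probes. With each array left out in turn, 1 to 3 of the 4 were lower, and over all tested probes 893 to 1944 were higher and 1141 to 2116 lower. The differences then ranged from -0.94 to -0.72 for *Fabp5*, from -0.63 to -0.42 (ILMN_1215469) and from -0.63 to -0.45 (ILMN_3150159) for *Dbi*, and from -0.53 to -0.21 for *Slc27a2*. The labels do not say whether replicate numbers pair the samples. Deviations of same-numbered arrays correlated by 0.02, 0.10 and 0.05, and those of differently numbered arrays by -0.17 to 0.13. With so few arrays these values cannot decide whether the samples were paired. With the replicate number as a block 3 of the 4 probes were lower (limma adjusted p 0.00898 for *Fabp5*, 0.0489 and 0.0351 for *Dbi*, 0.0873 for *Slc27a2*) and 1565 probes were higher and 1645 lower in all, which changed no call described for these 4. Signal over background limits *Fabp5*, and the 6 probes that were not tested give no information on their genes. The related lists were not run under the alternatives.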
